A study of Mus musculus with 6 samples.

Results

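Conventional type 1 dendritic cells, or DC1, are a splenic dendritic cell type that largely lacks CD11b, and 9 genes of their signature were followed here in sorted splenic CD11b+ cells. The genes were Xcr1, Clec9a, Itgae, Cadm1, Wdfy4, Naaa, Ly75, Cd24a and Ppt1. They were found by symbol in a table of 55335 mouse genes, of which 14849 had enough counts to be tested. All 9 genes were in the table and all 9 passed the filter on low counts. The RNA came from spleens of wild-type mice in 2 groups. The MI+RDN group (3 libraries) had a myocardial ischemic injury and renal denervation, which interrupts the nerves of the kidney, and the MI group (3 libraries) had the injury without the denervation. Both groups therefore carried the cardiac injury, and no uninjured group is in the series. The strain, sex and age of the mice, the time between surgery and sampling, and any pooling of animals are not stated in the labels. The study's design text calls the libraries biological replicates.

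DC1 cells take up dead cells and present their antigens on MHC class I to CD8 T cells, a process called cross-presentation. They arise from precursors that depend on the transcription factors IRF8 and BATF3, and in the mouse spleen they carry CD8α. XCR1, CLEC9A and CADM1 are surface proteins used to identify DC1 cells, whereas several other genes of the signature are also active in other leukocytes. Neutrophils, B cells and precursors express Cd24a, B cells express Wdfy4, T cells can express Itgae, and lysosomal enzymes such as PPT1 occur in most cells. CD11b, encoded by Itgam, is carried by neutrophils, monocytes, many macrophages and the other conventional type, DC2.

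Promoter windows of 250 bases before the gene start were available from RefSeq (build GRCm38.p6) for 6 of the 9 genes. Xcr1 and Clec9a are shown because they are the most DC1-restricted genes of the set, and Naaa and Ly75 are shown as genes with wider expression. Capitals mark CpG dinucleotides, and each sequence runs 5′ to 3′ on the gene's own strand. The windows are chr9:123862030-123862279 on the minus strand for Xcr1, chr6:129408612-129408861 on the plus strand for Clec9a, chr5:92278182-92278431 on the minus strand for Naaa and chr2:60383274-60383523 on the minus strand for Ly75.
Xcr1: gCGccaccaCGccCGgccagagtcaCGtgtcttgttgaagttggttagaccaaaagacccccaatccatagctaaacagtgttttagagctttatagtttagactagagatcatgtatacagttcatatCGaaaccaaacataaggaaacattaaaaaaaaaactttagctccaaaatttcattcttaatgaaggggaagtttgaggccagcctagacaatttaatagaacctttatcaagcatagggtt
Clec9a: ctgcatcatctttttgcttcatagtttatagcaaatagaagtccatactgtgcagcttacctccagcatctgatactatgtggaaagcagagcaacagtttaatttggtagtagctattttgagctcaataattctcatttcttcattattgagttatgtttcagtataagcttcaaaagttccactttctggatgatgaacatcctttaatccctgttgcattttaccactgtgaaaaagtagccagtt
Naaa: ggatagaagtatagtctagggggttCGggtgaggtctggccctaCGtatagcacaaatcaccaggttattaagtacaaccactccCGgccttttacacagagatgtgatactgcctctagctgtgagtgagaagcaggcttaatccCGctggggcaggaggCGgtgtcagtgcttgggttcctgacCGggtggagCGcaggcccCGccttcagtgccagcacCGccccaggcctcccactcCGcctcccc
Ly75: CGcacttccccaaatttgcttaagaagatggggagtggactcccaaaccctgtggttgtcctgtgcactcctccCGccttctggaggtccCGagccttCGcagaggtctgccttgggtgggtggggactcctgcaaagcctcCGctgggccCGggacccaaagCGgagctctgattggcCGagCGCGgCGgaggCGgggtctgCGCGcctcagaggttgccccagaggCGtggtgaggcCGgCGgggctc
The Clec9a window held 0 CpG dinucleotides at 35.6% G+C, and the Xcr1 window held 5 at 38.8% G+C. The Naaa window held 10 CpG dinucleotides at 59.2% G+C, and the Ly75 window held 17 at 66.8% G+C. The Wdfy4 and Ppt1 windows, which are not printed, held 5 and 7. Over 32851 mouse promoter windows of the same length the median was 6 CpG dinucleotides and 52.4% G+C. Only 7.87% of those windows held as few CpG dinucleotides as Clec9a, and 76.5% held fewer than Ly75. The Clec9a and Ly75 windows thus lay toward opposite ends of CpG content, and Xcr1 and Wdfy4 lay near the middle.

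Both strands of the 6 windows were searched for 3 short motifs. The AP-1 motif TGANTCA, of the family bound by BATF and JUN dimers, was in 0 of 6 windows and in 6.75% of all windows. The repeat GAAANNGAA, of the kind bound by interferon regulatory factors, was in 1 of 6 windows and in 7.13% of all windows. Its match was GAAAGAGAA in the Ppt1 window, at position -205 from the gene start. The composite GGAANNGAA, of the kind bound by ETS and IRF factors together, was in 0 of 6 windows and in 6.99% of all windows. These are matches of letters within 250 bases and say nothing of binding, there or elsewhere.

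Total counts per library were 24634555 to 28013900 in MI+RDN and 21663440 to 24677865 in MI. Levels below are CPM, counts scaled to library totals corrected by TMM factors. Itgam, the gene of the sort marker, averaged 1598 ± 95.2 CPM in MI+RDN and 1133 ± 150 CPM in MI (SD, n = 3 each), with a log2 fold change of 0.50 and an adjusted p of 0.109. Neutrophil genes had the highest sum of the marker lists in every library, 25048 to 27734 CPM in MI+RDN and 11953 to 18300 CPM in MI. In RNA from bulk cells, fewer cells of a type and less RNA per cell cannot be told apart.

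No DC1 signature gene differed between MI+RDN and MI at an adjusted p under 0.05 in edgeR's quasi-likelihood test with Benjamini-Hochberg adjustment over all 14849 genes. In the same test 150 genes of the table (1.01%) passed, 106 lower (0.714%) and 44 higher (0.296%) in MI+RDN. Without scaling factors 475 genes passed, 413 lower and 62 higher. Limma-voom also called 0 of the 9 genes, and the DESeq2 Wald test called 1, Cd24a. At an unadjusted p under 0.05, 4 of the 9 genes were lower in MI+RDN (44.4%, against 10.1% of all genes tested) and 1 was higher (11.1%, against 9.83%). The lower ones were Xcr1, Clec9a, Cadm1 and Wdfy4, and the higher one was Cd24a. All 3 MI+RDN libraries lay below all 3 MI libraries for 3 genes (33.3%, against 13.7% of all genes), and above them for 1 gene (11.1%, against 12.4%). The median log2 fold change of the 9 genes was 0.036, beside 0.0080 over all genes tested. The signature thus had no common direction, with 4 negative and 5 positive estimates. Estimates were negative for Xcr1, Clec9a, Cadm1 and Wdfy4, near 0 for Itgae, Naaa and Ppt1, and positive for Ly75 and Cd24a. Only Xcr1, Clec9a and Wdfy4, lower in MI+RDN, and Cd24a, higher, did not overlap between the groups.

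**Figure D1:**
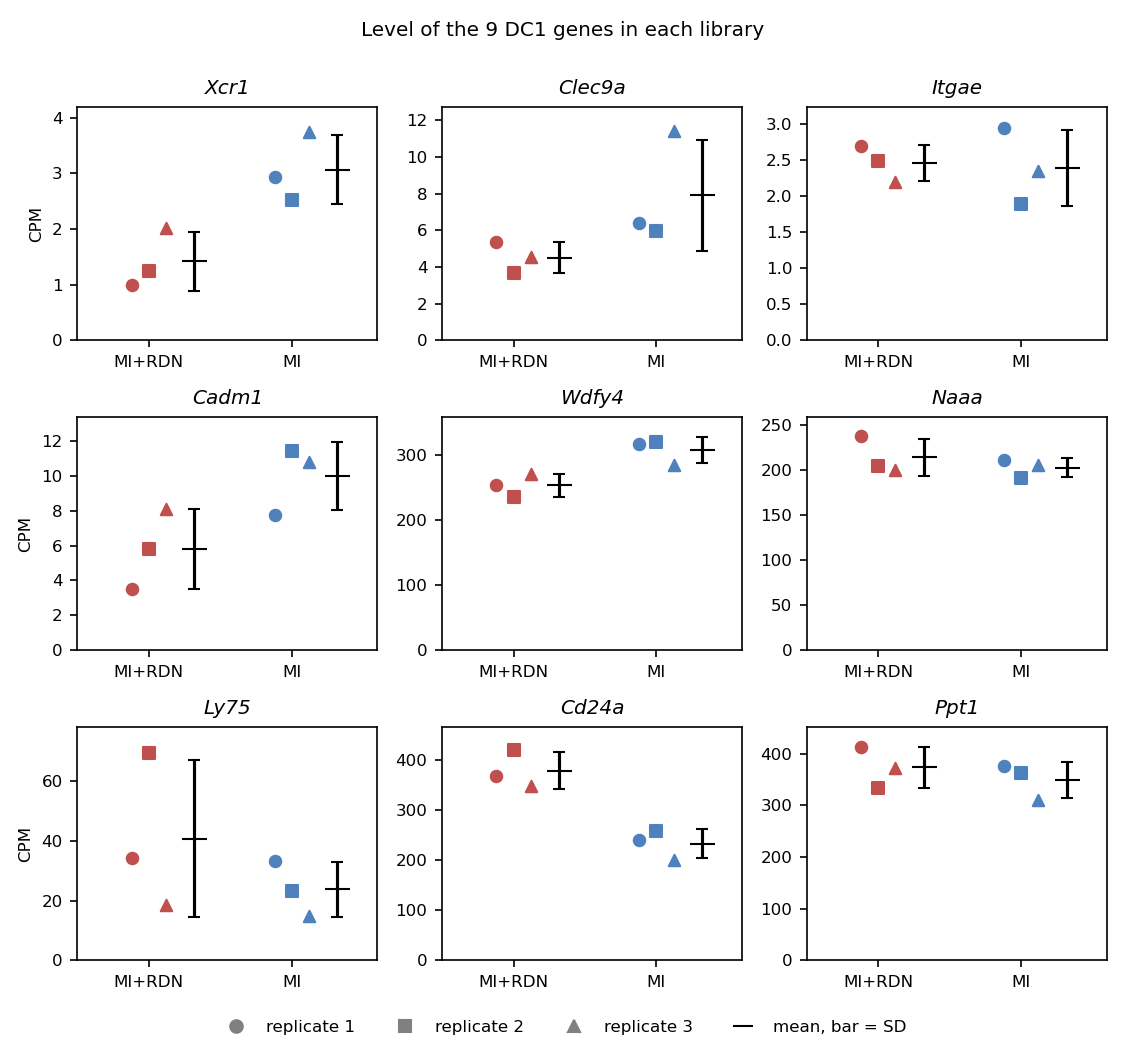
Level of each DC1 signature gene in CPM (y axis, starting at 0, its own scale for each gene) in the 3 MI+RDN libraries and the 3 MI libraries; points are libraries, and lines with bars are means ± SD. The groups do not overlap for Xcr1, Clec9a, Wdfy4 and Cd24a, and 1 MI+RDN library at 69.4 CPM stands above the others for Ly75.

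Xcr1 encodes the receptor for the chemokine XCL1, through which CD8 T cells and NK cells draw DC1 cells. Xcr1 measured 1.0, 1.24 and 2.02 CPM in MI+RDN, against 2.94, 2.53 and 3.74 CPM in MI. Every MI+RDN library was below every MI library, at levels resting on 26 to 47 counts per MI+RDN library and 56 to 100 counts per MI library. The mean was 1.42 ± 0.533 CPM in MI+RDN and 3.07 ± 0.616 CPM in MI (SD, n = 3 each). The fitted level was 2.17-fold lower in MI+RDN (log2 fold change -1.11, SE 0.33), with an unadjusted p of 0.00992 and an adjusted p of 0.127 in edgeR's quasi-likelihood test. Across 13 alternative settings the estimate ran between -1.46 and -0.91 and the adjusted p between 0.0685 and 0.339. Xcl1, the ligand gene, was looked up after the values were seen and averaged 1.73 ± 0.969 CPM in MI+RDN and 2.19 ± 0.738 CPM in MI (adjusted p = 0.711).

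Clec9a encodes a C-type lectin that recognises actin filaments exposed on dead cells. Clec9a measured 5.35, 3.65 and 4.56 CPM in MI+RDN, against 6.39, 5.95 and 11.4 CPM in MI. The groups did not overlap, but the lowest MI library and the highest MI+RDN library were close, and MI replicate 3 stood above the other MI libraries. Its fitted log2 fold change was -0.81 (SE 0.29, adjusted p = 0.181), and without MI replicate 3 it was -0.45 (adjusted p = 0.447). Clec9a shares 184 exon bases on the same strand with its neighbour Clec1b, which had 926 counts in all against 931 for Clec9a. Reads in the shared stretch could be assigned to either gene, depending on the counting. Clec1b averaged 5.89 ± 1.68 CPM in MI+RDN and 6.60 ± 0.229 CPM in MI (log2 fold change -0.16, adjusted p = 0.734).

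Cadm1 encodes an adhesion molecule of the immunoglobulin family that binds CRTAM on activated T cells. Cadm1 measured 3.50, 5.81 and 8.08 CPM in MI+RDN, against 7.75, 11.4 and 10.8 CPM in MI. The groups overlapped, since MI+RDN replicate 3 lay above MI replicate 1. The log2 fold change was -0.78 (SE 0.30, adjusted p = 0.209), and it was -0.52 without MI+RDN replicate 1, the library with the lowest value.

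Itgae encodes CD103, the αE integrin chain that pairs with β7 to bind E-cadherin. Itgae measured 2.69, 2.48 and 2.19 CPM in MI+RDN, against 2.94, 1.89 and 2.35 CPM in MI. The MI+RDN values lay inside the range of the MI values. The log2 fold change was 0.036 with an SE of 0.26 and an adjusted p of 0.952. Its estimate was near 0, unlike the negative estimates of Xcr1, Clec9a and Cadm1, but the difference between their fold changes was not tested.

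Wdfy4 encodes a BEACH-domain protein that DC1 cells need for cross-presentation of cell-associated antigen, and per length it was more abundant than Xcr1, Clec9a, Cadm1 and Itgae. Wdfy4 measured 253, 236 and 270 CPM in MI+RDN, against 317, 320 and 284 CPM in MI. The groups did not overlap, with MI+RDN replicate 3 and MI replicate 3 nearest to each other. Its estimate was a log2 fold change of -0.28 (SE 0.098, adjusted p = 0.176), or 1.21-fold lower in MI+RDN. Without scaling factors the estimate was -0.42 with an adjusted p of 0.0457, while the median over all genes under that setting was -0.13.

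Ly75 encodes DEC-205, an endocytic receptor that delivers bound antigen to late endosomes. Ly75 measured 34.1, 69.4 and 18.4 CPM in MI+RDN, against 33.2, 23.3 and 14.8 CPM in MI. The groups overlapped, and MI+RDN replicate 2 was well above every other library. The log2 fold change was 0.78 (SE 0.47, adjusted p = 0.392), and it became 0.13 when MI+RDN replicate 2 was left out and 1.12 when MI+RDN replicate 3 was. The same library stood out for neutrophil precursor genes, whose 11 members summed to 11310, 25244 and 3870 CPM in MI+RDN replicates 1, 2 and 3, against 8624, 7576 and 4984 CPM in MI replicates 1, 2 and 3. Mpo, the myeloperoxidase gene of granulocyte precursors, measured 19.6, 179 and 22.2 CPM in MI+RDN, against 29.8, 22.1 and 11.8 CPM in MI. The part of these precursors in the Ly75 level was not tested.

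Cd24a encodes CD24, a heavily glycosylated GPI-anchored surface protein. Cd24a measured 368, 421 and 349 CPM in MI+RDN, against 241, 259 and 201 CPM in MI. All MI+RDN libraries were above all MI libraries. The mean was 379 ± 37.0 CPM in MI+RDN and 234 ± 29.95 CPM in MI (SD, n = 3 each), 1.62-fold higher in MI+RDN. The log2 fold change was 0.70 (SE 0.13), with an unadjusted p of 0.000584 and an adjusted p of 0.0523, just outside the threshold. It passed under 4 of 14 alternative settings, with an adjusted p of 0.0497 with upper-quartile factors, 0.0462 without scaling factors, 0.0444 with a filter at a mean of 5 CPM and 2.73e-05 in the DESeq2 Wald test. The adjusted p reached up to 0.149 over all 14. The 10 neutrophil genes summed to 26514, 27734 and 25048 CPM in MI+RDN replicates 1, 2 and 3, against 16901, 18300 and 11953 CPM in MI replicates 1, 2 and 3, which is the order of the 6 libraries by Cd24a as well. The part of neutrophil RNA in the Cd24a level was not tested.

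Naaa and Ppt1 encode lysosomal enzymes: NAAA hydrolyses N-acylethanolamines such as palmitoylethanolamide, and PPT1 removes palmitate from proteins. Naaa measured 237, 204 and 200 CPM in MI+RDN, against 211, 191 and 205 CPM in MI. Ppt1 measured 413, 334 and 373 CPM in MI+RDN, against 376, 362 and 310 CPM in MI. The groups overlapped for both genes, and both were abundant in every library. The log2 fold change was 0.076 for Naaa (SE 0.0998, adjusted p = 0.707) and 0.096 for Ppt1 (SE 0.12, adjusted p = 0.695). Ppt1 shares 129 exon bases with Cap1 on the opposite strand, and the labels do not state how strand was used in the counting.

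**Figure D2:**
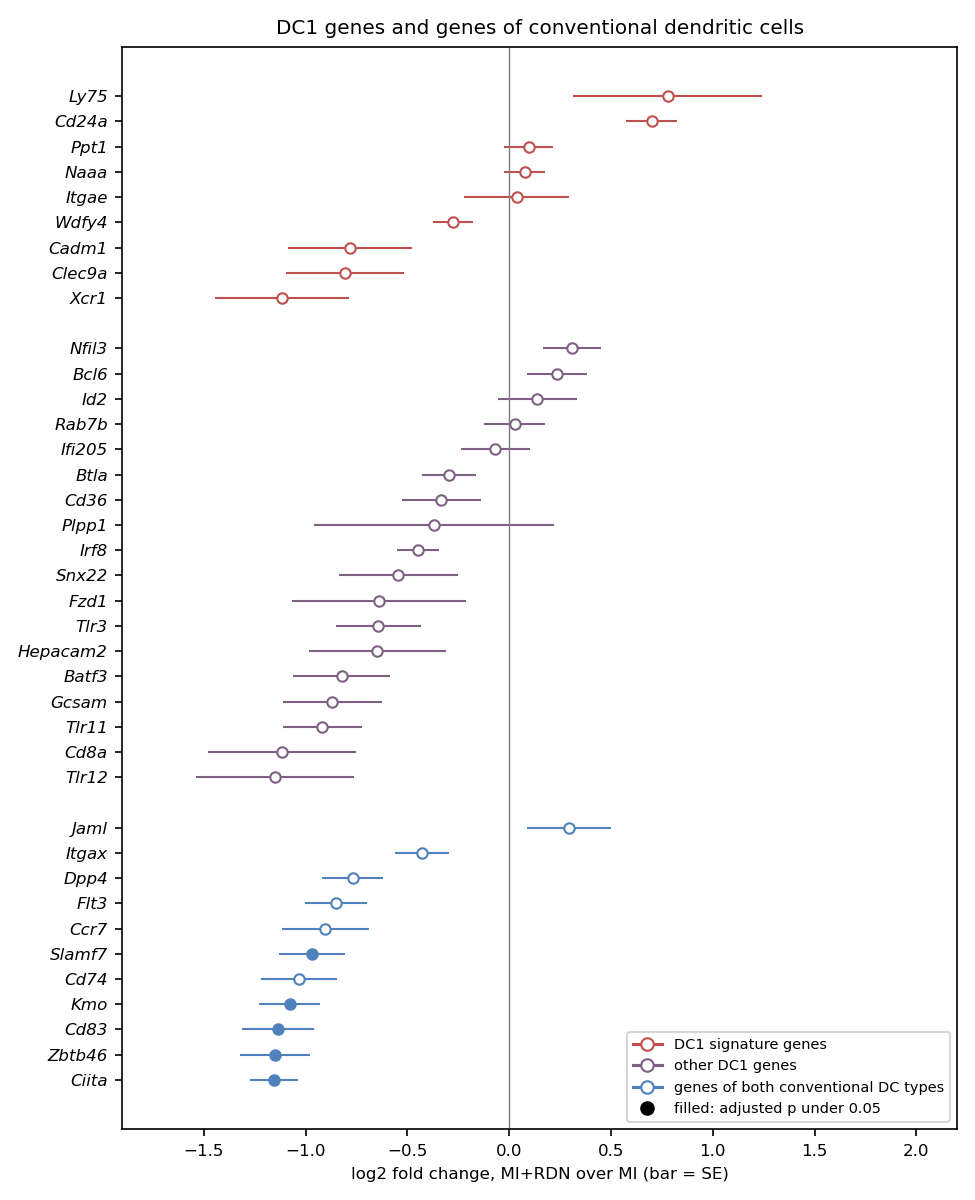
Log2 fold change of MI+RDN over MI with its SE for the DC1 signature genes and the tested genes of the lists of other DC1 genes and of genes shared by both conventional types, from edgeR's quasi-likelihood fit; values left of 0 are lower in MI+RDN. Xcr1, Clec9a, Cadm1 and Wdfy4 lie left of 0, Itgae, Naaa and Ppt1 lie at it, and Cd24a and Ly75 lie right of it.

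Levels were compared between genes as CPM per kilobase of exon (union exon length in GENCODE vM21). In MI+RDN Cd24a was the highest at 147 ± 14.3 CPM per kilobase, followed by Ppt1 at 102 ± 10.7, Naaa at 57.4 ± 5.47, Wdfy4 at 24.0 ± 1.63, Ly75 at 5.89 ± 3.78, Clec9a at 1.37 ± 0.258, Cadm1 at 0.555 ± 0.219, Itgae at 0.536 ± 0.0551 and Xcr1 at 0.319 ± 0.12 (SD, n = 3). The highest gene was 461 times the lowest, and Cadm1 and Itgae were the only neighbours in this order whose libraries overlapped. In MI Ppt1 was the highest at 95.1 ± 9.47 CPM per kilobase, followed by Cd24a at 90.6 ± 11.6, Naaa at 54.5 ± 2.77, Wdfy4 at 29.1 ± 1.91, Ly75 at 3.44 ± 1.33, Clec9a at 2.40 ± 0.912, Cadm1 at 0.954 ± 0.185, Xcr1 at 0.689 ± 0.138 and Itgae at 0.523 ± 0.114. The highest was 182 times the lowest in MI, and 4 neighbouring pairs overlapped there: Ppt1 with Cd24a, Ly75 with Clec9a, Cadm1 with Xcr1, and Xcr1 with Itgae. The genes thus formed an abundant set of Cd24a, Ppt1, Naaa and Wdfy4 and a scarce set of Clec9a, Cadm1, Itgae and Xcr1, with Ly75 between them. Xcr1, Clec9a and Cadm1, named above for surface proteins used to identify DC1 cells, were all in the scarce set in cells sorted for CD11b.

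**Figure D3:**
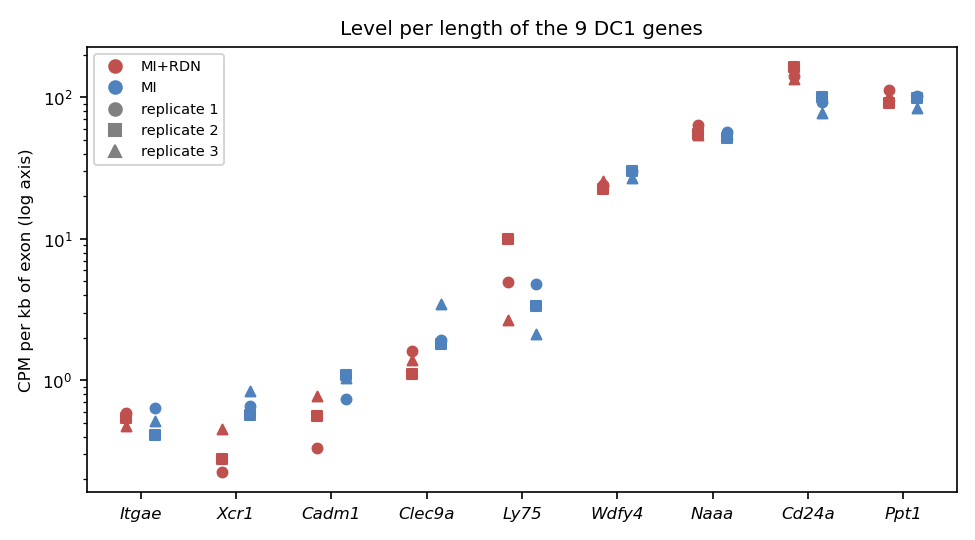
Level of each DC1 signature gene in CPM per kilobase of exon on a log axis, in MI+RDN and MI; points are libraries. Cd24a, Ppt1, Naaa and Wdfy4 lie above 20 CPM per kilobase and Clec9a, Cadm1, Itgae and Xcr1 lie below 4.

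Further genes of DC1 cells were read from a separate list of 20, of which 18 were tested. Cd207, the langerin gene, had no count in any library, and Gpr33 was too low to test. None of the 18 passed in edgeR's quasi-likelihood test with Benjamini-Hochberg adjustment, 7 were lower (38.9%, against 10.1% of all genes) and 0 higher at an unadjusted p under 0.05, the DESeq2 Wald test called 4 and limma-voom called 0. Their median log2 fold change was -0.50, with 14 negative and 4 positive values, and the groups did not overlap, MI+RDN lower, for 7 (38.9%, against 13.7% of all genes). Among the factors that specify DC1 cells, Batf3 averaged 5.48 ± 0.737 CPM in MI+RDN and 9.68 ± 2.91 CPM in MI (log2 fold change -0.82, adjusted p = 0.123). Irf8, which monocytes and B cells also express, averaged 148 ± 4.87 CPM in MI+RDN and 201 ± 23.8 CPM in MI (log2 fold change -0.45, adjusted p = 0.0783). Id2, which antagonises E proteins, averaged 150 ± 28.6 CPM in MI+RDN and 136 ± 29.6 CPM in MI (log2 fold change 0.14, adjusted p = 0.733). Nfil3, a factor upstream in DC1 development, averaged 105 ± 14.4 CPM in MI+RDN and 84.7 ± 13.2 CPM in MI (log2 fold change 0.31, adjusted p = 0.279).
Surface and endosomal receptors of the list were next. Tlr3, the receptor for double-stranded RNA, averaged 4.03 ± 0.362 CPM in MI+RDN and 6.30 ± 1.17 CPM in MI (log2 fold change -0.64, adjusted p = 0.149). Tlr11, a receptor for profilin in the mouse named after its value was seen, averaged 5.05 ± 1.04 CPM in MI+RDN and 9.53 ± 0.993 CPM in MI (log2 fold change -0.92, adjusted p = 0.0671). Cd8a averaged 4.78 ± 2.39 CPM in MI+RDN and 10.3 ± 1.79 CPM in MI (log2 fold change -1.11, adjusted p = 0.152). Cd8a is also a T cell gene, and Cd8b1, which T cells express and DC1 cells largely lack, averaged 3.13 ± 2.25 CPM in MI+RDN and 6.5 ± 1.2 CPM in MI. The T cell list summed to 38.0 to 58.3 CPM in MI+RDN and 80.0 to 109 CPM in MI, and its part in the Cd8a level was not tested.

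Cross-presentation machinery was read beside Wdfy4 from a list of 17 genes, all tested, which covers antigen transport as well as peptide trimming and loading on MHC class I. None passed in edgeR's quasi-likelihood test with Benjamini-Hochberg adjustment, the DESeq2 Wald test called 2 and limma-voom called 0. At an unadjusted p under 0.05, 1 was lower (5.88%, against 10.1% of all genes) and 2 were higher (11.8%, against 9.83%), shares near those of all genes. The groups did not overlap for 2 genes lower in MI+RDN (11.8%, against 13.7% of all genes) and 5 higher (29.4%, against 12.4%). The median log2 fold change was 0.097, with 4 negative and 13 positive values. Erap1, which trims peptides in the endoplasmic reticulum, averaged 56.7 ± 2.21 CPM in MI+RDN and 72.3 ± 3.73 CPM in MI (log2 fold change -0.35, adjusted p = 0.0805). Psmb9, an immunoproteasome subunit, averaged 93.4 ± 14.9 CPM in MI+RDN and 70.9 ± 0.183 CPM in MI (log2 fold change 0.40, adjusted p = 0.128). Many of these genes work in most leukocytes and are not restricted to DC1 cells.

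Genes that DC1 and DC2 cells share were read from a list of their own. Of 11 tested, 5 fell in MI+RDN (45.5%, against 0.714% of all genes), namely Ciita, Kmo, Zbtb46, Cd83 and Slamf7, and the median log2 fold change was -0.97. Of the 11, 10 values were negative and 1 positive, the DESeq2 Wald test called 10 and limma-voom called 4. Zbtb46, a zinc finger factor that both conventional types express, averaged 9.997 ± 0.827 CPM in MI+RDN and 22.2 ± 4.63 CPM in MI (log2 fold change -1.15, adjusted p = 0.0401). Ciita, whose product switches on MHC class II transcription, averaged 82.2 ± 6.35 CPM in MI+RDN and 183 ± 24.2 CPM in MI (log2 fold change -1.16, adjusted p = 0.0133). Of 16 DC2 genes, 4 fell, namely Cd4, Cd209a, Clec10a and Dtx1 (25.0%, against 0.714% of all genes), with a median log2 fold change of -0.58. Of the 16, 13 values were negative and 3 positive, the DESeq2 Wald test called 4 and limma-voom called 3. At an unadjusted p under 0.05, 5 were lower (31.2%, against 10.1% of all genes) and 1 was higher (6.25%, against 9.83%). The DC2 sums overlapped, at 2359 to 2854 CPM in MI+RDN and 2678 to 2740 CPM in MI. Such sums follow the most abundant genes of the list and say little of its scarcer genes. Sirpa, the highest, averaged 1022 ± 33.6 CPM in MI+RDN and 1047 ± 53.6 CPM in MI. Cd209a, the mouse DC-SIGN gene, measured 34.4, 16.8 and 27.2 CPM in MI+RDN, against 74.2, 111 and 162 CPM in MI (adjusted p = 0.0401). Without MI+RDN replicate 1, and likewise without MI replicate 3, no gene of the table passed in edgeR's test. The 9 genes that test called from these lists were thus lost without either library. Lower DC1 and DC2 genes in MI+RDN were known from earlier results of these data and are no independent support. B cell and T cell genes were also lower in MI+RDN, with median log2 fold changes of -0.87 and -0.98 over 12 tested genes each. The part of B cells and T cells in the levels of the shared and DC2 genes was not tested.

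The scarce genes Xcr1, Clec9a and Cadm1 were then set against Zbtb46, Cd209a and the T cell gene Cd8b1 as log2 ratios within each library. The other pairs set Cd24a against Xcr1, Clec9a, Cadm1, Wdfy4, Ly6g and S100a9, and Ly75 against Mpo. All 16 gene pairs were chosen after the values were seen. With 3 libraries against 3 the smallest p an exact two-sided permutation test can give is 0.1, so no pair could pass. The log2 ratio of Xcr1 to Zbtb46 averaged -2.88 ± 0.491 in MI+RDN and -2.85 ± 0.241 in MI (exact permutation p = 0.9). The log2 ratio of Clec9a to Cd209a averaged -2.49 ± 0.252 in MI+RDN and -3.86 ± 0.340 in MI, without overlap (exact permutation p = 0.1, 0.229 adjusted over the 16 pairs). The other ratios to Cd209a overlapped: that of Xcr1 averaged -4.20 ± 0.779 in MI+RDN and -5.18 ± 0.455 in MI (exact permutation p = 0.2), and that of Cadm1 averaged -2.19 ± 0.961 in MI+RDN and -3.48 ± 0.371 in MI (exact permutation p = 0.3). The ratios to Zbtb46 overlapped for Xcr1, Clec9a and Cadm1 alike. Against the neutrophil gene Ly6g, the log2 ratio of Cd24a averaged 1.61 ± 0.271 in MI+RDN and 2.45 ± 0.207 in MI, also without overlap (exact permutation p = 0.1, 0.229 adjusted). The log2 ratios of Cd24a to Xcr1, Clec9a, Cadm1 and Wdfy4 were higher in MI+RDN without overlap. Each had an exact permutation p of 0.1, or 0.229 adjusted. The ratio of Cd24a to S100a9 was lower without overlap, and the ratios to Cd8b1 and that of Ly75 to Mpo overlapped.

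Markers of other cells also differed in level between the groups. The 12 B cell genes summed to 347 to 546 CPM in MI+RDN and 661 to 964 CPM in MI, and all 12 fold changes were negative. The groups did not overlap for 11 of them (91.7%, against 13.7% of all genes). None passed in edgeR's quasi-likelihood test, all 12 had an unadjusted p under 0.05 (10.1% of all genes were lower at that p), the DESeq2 Wald test called 11 and limma-voom called 0. None of the 12 was at 0 in all libraries, and B cells express Wdfy4 and Cd24a. The 10 neutrophil genes all had positive fold changes and 2 rose, Retnlg and Ly6g (20.0%, against 0.296% of all genes). Plasmacytoid dendritic cell genes summed to 307 to 344 CPM in MI+RDN and 334 to 373 CPM in MI, erythroid genes to 198 to 262 CPM in MI+RDN and 410 to 803 CPM in MI, and splenic macrophage genes to 936 to 1378 CPM in MI+RDN and 1177 to 1357 CPM in MI. Ly6C-high monocyte genes summed to 7467 to 10154 CPM in MI+RDN and 8592 to 9694 CPM in MI, and NK cell genes to 168 to 251 CPM in MI+RDN and 220 to 241 CPM in MI. Of 12 T cell genes tested 1 fell, Cd3d (8.33%, against 0.714% of all genes). At an unadjusted p under 0.05 10 of the 12 were lower (83.3%, against 10.1%), 9 did not overlap between the groups (75.0%, against 13.7%), the DESeq2 Wald test called 5 and limma-voom called 0. Of 9 Ly6C-high monocyte genes 1 rose, Ly6c2 (11.1%, against 0.296% of all genes). The 9 had no common direction, with 4 negative and 5 positive values and a median log2 fold change of 0.062. At an unadjusted p under 0.05, 2 of the 9 were higher (22.2%, against 9.83%) and 0 were lower. The DESeq2 Wald test called 2 of them and limma-voom called 1. No plasmacytoid, NK cell, macrophage, erythroid or neutrophil precursor gene passed in edgeR's quasi-likelihood test. At an unadjusted p under 0.05, 5 of 11 plasmacytoid genes (45.5%), 2 of 9 NK cell genes (22.2%), 6 of 13 macrophage genes (46.2%) and 5 of 9 erythroid genes (55.6%) were lower, against 10.1% of all genes. At the same p, 1 of 11 precursor genes (9.09%) was higher, near the 9.83% of all genes. The DESeq2 Wald test called 1 plasmacytoid, 1 NK cell, 4 macrophage, 5 erythroid and 0 precursor genes, and limma-voom called 0 of each. Among these other cell types, the summed levels thus did not overlap between the groups for neutrophil genes, higher in MI+RDN, or for B cell, T cell and erythroid genes, lower in MI+RDN. Sums follow the most abundant genes of each list, so an overlap does not show that its other genes were unchanged. Where sums overlapped, the median log2 fold change was -0.61 for macrophage genes (11 negative, 2 positive) and -0.25 for plasmacytoid genes (8 negative, 3 positive). The median was -0.071 for NK cell genes (6 negative, 3 positive) and 1.3 for neutrophil precursor genes (0 negative, 11 positive). The part of each cell type in the DC1 gene levels was not tested.

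**Figure D4:**
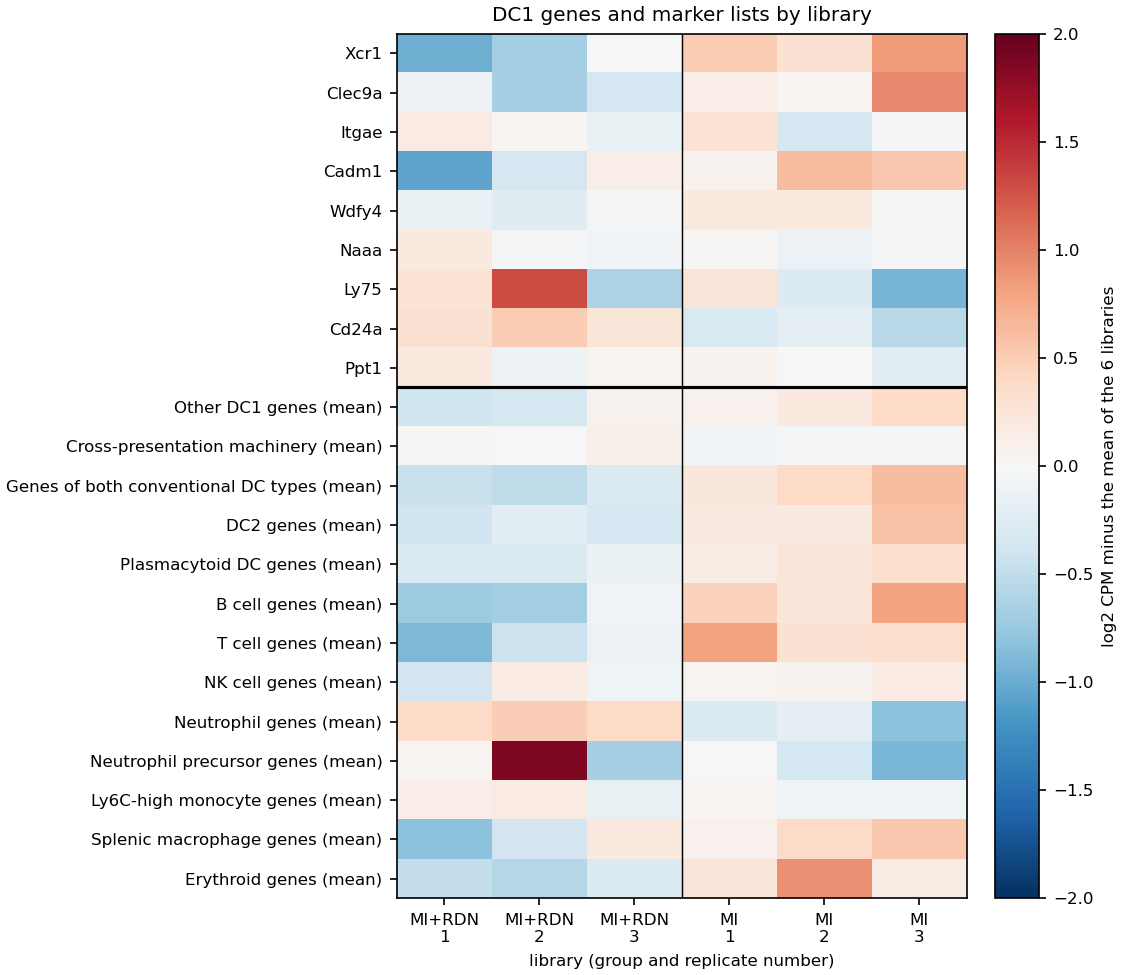
Log2 CPM of each DC1 signature gene, and the mean over the tested genes of each marker list, as the difference from the mean of the 6 libraries (colour, from blue below to red above), with MI+RDN libraries left of the line and MI libraries right of it. Xcr1, Clec9a and Cadm1 averaged lower in MI+RDN, as did the B and T cell lists, Cd24a and the neutrophil list were higher in every MI+RDN library, and Ly75 and the neutrophil precursor list are both highest in MI+RDN replicate 2.

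The genes most like Xcr1 and Clec9a were sought among tested genes with a mean of at least 5 CPM, by Pearson's r of log2 CPM over the 6 libraries, as a description with no test. Predicted or unnamed genes and antigen receptor segments were left out, and genes under that mean could not be returned. For Xcr1 these were Scd1 (r = 0.998), Gbp8 (r = 0.997) and Grap (r = 0.997) of 9485 genes, and 140 genes had an r over 0.95. For Clec9a these were Ptpro (r = 0.997), Zfp706 (r = 0.994) and Ptpn4 (r = 0.991) of 9484 genes, and 60 genes had an r over 0.95. The 6 points share their groups and their libraries. Scd1, the stearoyl-CoA desaturase gene, averaged 37.7 ± 13 CPM in MI+RDN and 80.0 ± 12.3 CPM in MI (adjusted p = 0.0671).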

How the data were processed

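RNA was extracted with a Qiagen kit from splenic CD11b+ cells isolated by flow cytometry, and strand-specific TruSeq libraries were sequenced on a NovaSeq instrument, per the labels' protocols. The authors deposited raw counts per Ensembl gene. FastQC 0.11.2, STAR and GRCm39 are named in the submitters' processing notes, while the counter, its annotation and its strand setting are not stated there. Symbols came from the reference tables (55154 of 55335 IDs matched), and 31020 genes were at 0 in all libraries. Counts were filtered with filterByExpr, scaled by TMM and tested with edgeR 4.0.16's quasi-likelihood test (R 4.3.3), MI+RDN over MI, with Benjamini-Hochberg adjustment over 14849 genes at 0.05. The common biological coefficient of variation was 20.7%. Alternatives were other scalings and filters, DESeq2 1.42.0, limma-voom (limma 3.58.1), a replicate block and leaving out each library. On simulated counts the test recovered 55.8% of 2-fold and 84% of 4-fold changes, and 6.05% of its calls were false. Each simulated set changed 200 random genes, as many up as down, with no wider shift between the groups. The rates average over all expression levels and are not those of scarce genes such as Xcr1 and Itgae. A gene that did not pass was thus not shown to be unchanged. The design text speaks of biological replicates but not of separate animals, so p-values measure only the spread between these samples. Exon lengths and overlaps used GENCODE vM21 (GRCm38), another build than the alignment. The signature genes and all lists were chosen with earlier results of these data known. Genes named were all 9 signature genes, set genes of the DC1 list and, from other lists, up to 4 genes past the threshold or the 2 with the lowest p. Exceptions chosen after their values were seen were Xcl1, Clec1b, Mpo, Cd8b1, Tlr11, Slamf7, Sirpa and the gene pairs.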

Additional observations from a re-analysis of the deposited data

How the results depend on the processing

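The 150 genes past the threshold became 475 without scaling factors (62 higher, 413 lower), 21 with no filter, 290 with a mean of at least 5 CPM, 1083 by the DESeq2 Wald test and 87 with the replicate block, and stayed within 1.5 times with DESeq2 size factors (123), upper-quartile factors (159) and limma-voom (111). Leaving out 1 library each left 0 to 67 genes, with 0 in edgeR's test without MI+RDN replicate 1 and without MI replicate 3, where 2323 and 2084 genes had an unadjusted p under 0.05. The cause was not tested. The 0 DC1 signature genes past the threshold became 1 with upper-quartile factors, 2 without scaling factors, 1 with the mean of at least 5 CPM and 1 by the DESeq2 Wald test, and stayed 0 without any 1 library. Their median ran from -0.104 to 0.109 over 14 alternatives. Reversed signs were near 0: Itgae at -0.102 without scaling factors, -0.0303 without MI+RDN replicate 1 and -0.104 without MI replicate 2 (up to 0.209 without MI replicate 1), Naaa at -0.0627 without scaling factors and -0.000969 without MI+RDN replicate 1, and Ppt1 at -0.0411 without scaling factors, where the median of all genes was -0.13. Cadm1 did not overlap between the groups without scaling factors. Deviations of same-numbered libraries from their group means had correlations of 0.0179, -0.0652 and 0.064. With 3 libraries per group these values cannot settle whether the numbers pair samples. Under the replicate block 0 signature genes passed. Xcr1 and Itgae, at the lowest counts, were not tested with the mean of at least 5 CPM.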
